A study of Homo sapiens with 24 samples.

Results

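ABHD6 and 9 enzymes of acylglycerol and endocannabinoid metabolism were followed across Huh7 hepatoma cells with or without *ABHD6*. The 10 genes were taken by symbol, through the GENCODE release 29 annotation, from the 57979 genes of the deposited expression table, and all 10 were found. Huh7 is an established human liver cancer line. The cells were wild type (WT) or *ABHD6* knockout (KO), and both were sampled in basal medium (0 h) and after exposure for 24 h or for 48 h to palmitic acid, a saturated fatty acid, at 800 µM. There were 4 messenger RNA libraries in each of the 6 groups, 24 in all. All groups, controls included, grew in serum-containing medium. The sources used here do not give how the knockout was made or whether the KO cells are 1 clone, so genotype and clone cannot be told apart. The labels also do not tie libraries to separate cultures, and the p-values below measure only the spread between libraries, which may be technical.

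Monoacylglycerols are glycerol with a single fatty acid. One of them, 2-arachidonoylglycerol, is also a signal, the most abundant endocannabinoid, which acts on the receptors CB1 and CB2. Diacylglycerol lipases make it from diacylglycerol, and serine hydrolases such as ABHD6, MGLL and ABHD12 split it into glycerol and arachidonic acid. The second endocannabinoid, anandamide, belongs to the N-acylethanolamines, which NAPEPLD releases from membrane phospholipids and FAAH breaks down. In liver the same hydrolases act on monoacylglycerols that come from stored fat, and ABHD6 also splits lysophospholipids and bis(monoacylglycero)phosphate, a lipid of late endosomes. If a cell without ABHD6 made more of a related hydrolase, its mRNA could show it, and that is the question asked of the KO libraries here.

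Most of these enzymes are serine hydrolases, with a nucleophilic serine in a glycine-X-serine-X-glycine motif. The coding sequence around that serine is shown for the 5 genes that carry the comparison of related hydrolases and for DAGLB, so that the catalytic windows can be set side by side. The 45 bases are the sense strand, 5′ to 3′, from the GENCODE release 29 transcripts on GRCh38, with the 15 bases of the motif in capitals and the serine counted from the first residue of the annotated protein of the transcript used.
ABHD6, serine 148, exon 6, chr3:58270962-58271006, plus strand: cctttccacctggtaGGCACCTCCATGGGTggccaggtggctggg
MGLL, serine 132, across the end of exon 4, within chr3:127721146-127722456, minus strand: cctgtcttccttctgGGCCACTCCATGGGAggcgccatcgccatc
ABHD12, serine 246, across the end of exon 7, within chr20:25308485-25309480, minus strand: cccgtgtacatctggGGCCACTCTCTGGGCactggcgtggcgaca
ABHD2, serine 207, exon 6, chr15:89175871-89175915, plus strand: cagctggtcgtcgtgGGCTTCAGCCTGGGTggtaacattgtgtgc
CES1, serine 222, exon 5, chr16:55821374-55821418, minus strand: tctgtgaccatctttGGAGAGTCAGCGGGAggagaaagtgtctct
DAGLB, serine 443, exon 11, chr7:6416704-6416748, minus strand: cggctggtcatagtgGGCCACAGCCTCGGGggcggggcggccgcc
DAGLA, ABHD4 and FAAH hold matches to the motif as well, FAAH in 2 overlapping matches at serines 217 and 218. MGLL and ABHD12 each hold a further match that is not shown, at serine 93 and serine 211. DAGLA holds 2, at serines 472 and 737. The search for the motif does not choose between matches. A match alone does not show that its serine is the nucleophile, and the FAAH matches are not given as its catalytic serine. The annotated NAPEPLD protein has no match, and NAPEPLD is known as a metal-dependent enzyme.

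Values were the authors' FPKM, fragments divided by gene length and by library depth. Being per length, they put genes on a common scale. The group-wide 0 values and the strand limit described below restrict any comparison of levels between genes. The fragments behind each library, read from the smallest steps of the values, were few, 391976 to 496568 in the 8 libraries at 0 h and 561263 to 728989 in the 16 later ones, so low genes had better odds of being seen after palmitic acid. A 0 in the table is not proof of absence. MT-CO1, which every cell uses, had between 272.8 and 493.6 FPKM in the libraries from basal medium, yet all 16 treated libraries show 0 for it. MT-ATP6, MT-CO3 and MT-ATP8 were at 0 in every WT library at 48 h. The KO libraries at 48 h held 5570 to 6952, 3955 to 5169 and 36519 to 40147 FPKM for these genes, in that order. All 8 hepatoma markers were above 0 in all groups, with a summed level of 889.7 to 1995.6 FPKM per library, while the stellate markers DES and LRAT, the immune markers ADGRE1 and MS4A1 and the endothelial markers VWF, CDH5 and KDR were at 0 in all 24. Other genes of those lists had signal: PECAM1 was above 0 in 24 libraries (mean 5.27 FPKM), CD68 in 21 (8.29), STAB2 in 17 (7.03), CD14 in 14 (1.64) and ACTA2 in 9 (1.15). Summed levels reached 10.1 FPKM per library for the 6 stellate, 35.7 for the 6 immune and 27.0 for the 5 endothelial markers. A gene is called below when its Benjamini-Hochberg adjusted p, from limma on log2(FPKM + 0.5) over the 17252 genes that averaged 0.5 FPKM or more, was under 0.05. Of the 10 genes, 7 reached that floor, and ABHD6, DAGLA and FAAH did not.

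The strand that was counted limits all levels below. The library kit keeps strand, and the sources used here do not state the counting's strand setting. GAPDH averaged 239 FPKM, and the gene annotated opposite it, AC006064.4, 37290 FPKM. Of the mitochondrially encoded protein genes, MT-ND6 had the highest value in 17 of the 24 libraries. Among 1303 pairs of a noncoding gene or pseudogene with 1 protein-coding gene opposite it (at least 200 shared exon bases, either at 0.5 FPKM or more), the noncoding member had the higher mean in 828 (63.5%). If a row holds reads of the strand opposite its gene, a low value such as that of ABHD6 says little about the gene's own mRNA, and the values below are those of the deposited rows. Whether this holds for the 10 genes was not tested.

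ABHD12 and NAPEPLD had the highest deposited values of the set. ABHD12 averaged 53.2 FPKM over the 24 libraries and NAPEPLD 50.8, and they held the first and second place in each of the 6 groups. DAGLB (7.19), CES1 (5.39), ABHD4 (3.21), ABHD2 (3.18) and MGLL (1.25) followed, and DAGLA (0.468), FAAH (0.318) and ABHD6 (0.239) were lowest. Among the 5 hydrolases ABHD6, MGLL, ABHD12, ABHD2 and CES1, ABHD12 made up between 74.3% (WT at 24 h) and 90.4% (KO at 0 h) of the summed mean FPKM. The plot of FPKM by library shows these levels and how widely the lower genes scattered.

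**Figure D1:**
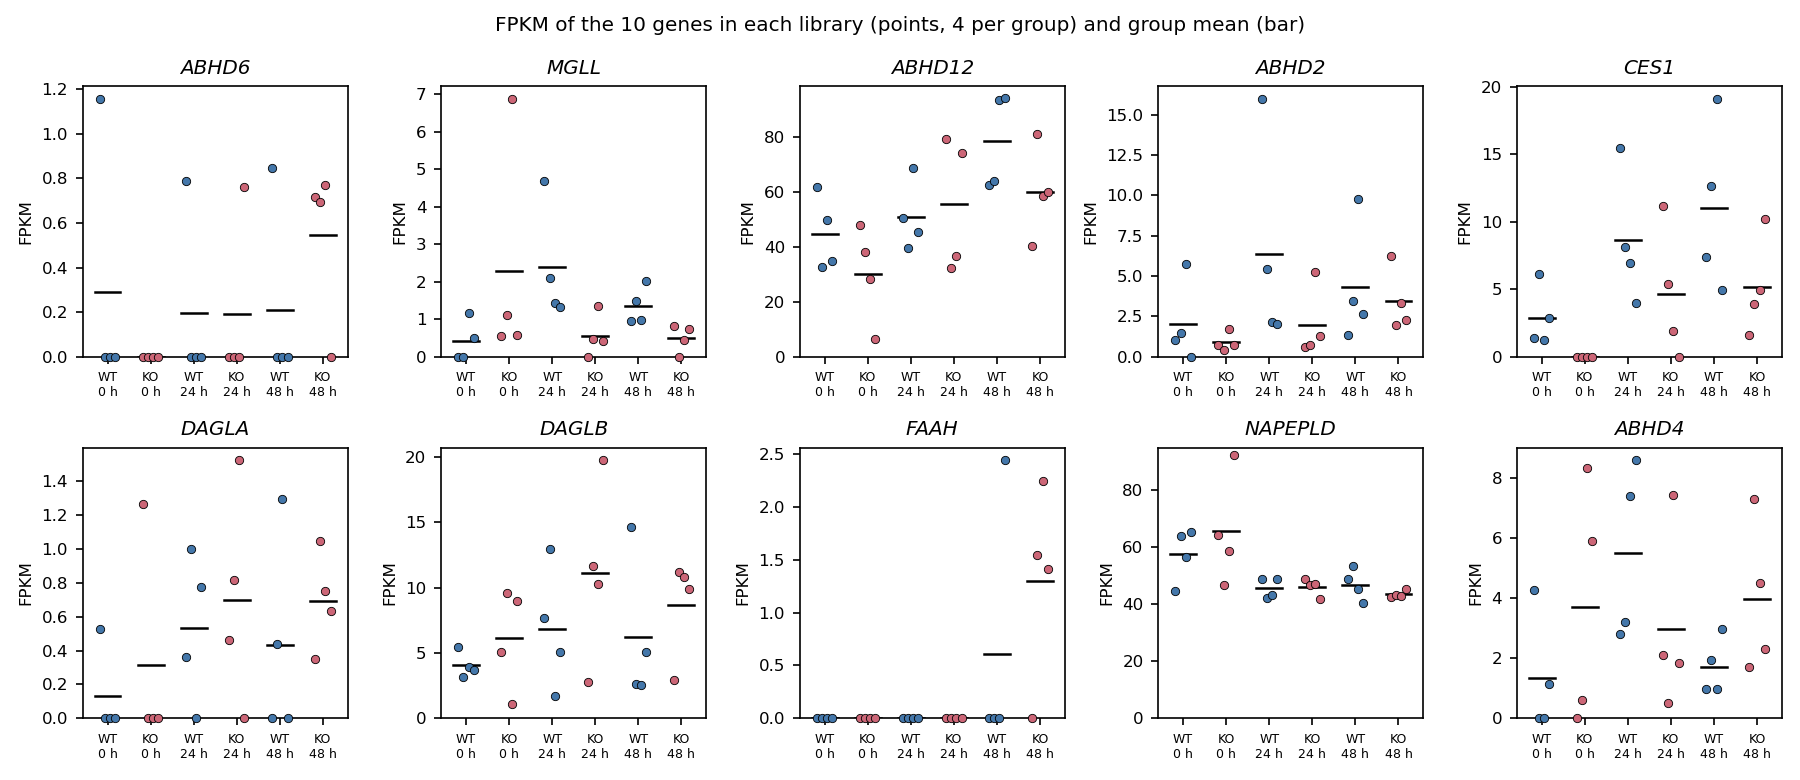
FPKM of each of the 10 genes (y axis, a separate scale for each panel) in every library, by genotype and time (x axis; blue WT, red KO). Points are libraries and bars are means of 4; ABHD6 stays at or below 1.16 FPKM in both genotypes, and CES1 is listed at 0 in the 4 KO libraries at 0 h.

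*ABHD6*, the targeted gene (ENSG00000163686.14, chr3:58237506-58295693, plus strand), was at the limit of detection in both genotypes. The 4 WT libraries held 1.16, 0, 0 and 0 FPKM at 0 h, then 0.785, 0, 0 and 0 at 24 h, and finally 0.846, 0, 0 and 0 at 48 h. The KO libraries held 0 FPKM in all 4 cases at 0 h, then 0, 0, 0 and 0.759 at 24 h, and 0.718, 0.693, 0.771 and 0 at 48 h. It was thus above 0 in 3 of 12 WT and 4 of 12 KO libraries (Fisher's exact test, two-sided, p = 1), and WT and KO overlapped at each time.

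Each of those 7 values amounted to 1.12 to 1.21 fragments on the longest ABHD6 transcript of 2482 bases, that is about 1 fragment. The 3 fragments that a count of 0 still allows stood for 1.66 to 3.08 FPKM in the WT groups, above all ABHD6 values seen. KO minus WT on the log2(FPKM + 0.5) scale was -0.43 at 0 h, -0.01 at 24 h and 0.61 at 48 h. Exact permutation over 70 splits of 8 libraries gave p of 1, 1 and 0.486 (two-sided). The smallest p that 70 splits allow is 0.0286, but only where tied values permit it. At 0 h only 1 library was above 0, so that p was fixed in advance. At 24 h only 1 library of each genotype was above 0, and the ties kept 0.0286 out of reach. The mRNA values therefore neither separated the genotypes nor checked the labels, and a loss of ABHD6 transcript was not detectable in these values. A knockout can also leave a transcript that encodes no working protein, and the sources used here do not give which part of the gene was altered.

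No related enzyme was called between KO and WT. The count was 0 of the 7 genes tested at 0 h, 24 h and 48 h, against 0.0985%, 0.0116% and 0.0638% of all genes, and 0 of 7 over the mean of the 3 times, against 0.18%. At an unadjusted p under 0.05 the counts were 1 gene at 0 h (CES1), 1 at 24 h (MGLL), 0 at 48 h and 1 over the 3 times (CES1), beside 6.92%, 5.17%, 6.56% and 6.82% of all genes. In these comparisons both genes stood lower in KO, while MGLL at 0 h stood higher in KO and was not called. Over the 3 times the median difference of the 7 genes was -0.38 and that of all genes was 0.00.

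The limit of that statement differed from gene to gene. NAPEPLD differed by 0.02 ± 0.11 log2 units (SE; 95% interval -0.20 to 0.24; adjusted p = 0.986, limma), and a 1.42-fold change would have been called given its SE and the p that called genes reached. ABHD12 differed by -0.40 (interval -0.92 to 0.13), with 2.29-fold needed. For the low genes the needed change was large, 3.40-fold for MGLL, 3.67-fold for DAGLB, 4.24-fold for ABHD2 and 5.23-fold for ABHD4. The single times needed more. At 0 h, 24 h and 48 h it was 1.91-, 2.17- and 1.95-fold for NAPEPLD and 4.57-, 6.22- and 4.82-fold for ABHD12. For MGLL it was 9.40-, 14.8- and 10.1-fold. All folds given here are ratios of FPKM with the constant of the fit added. For the low genes they understate the fold needed in FPKM itself.

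**Figure D2:**
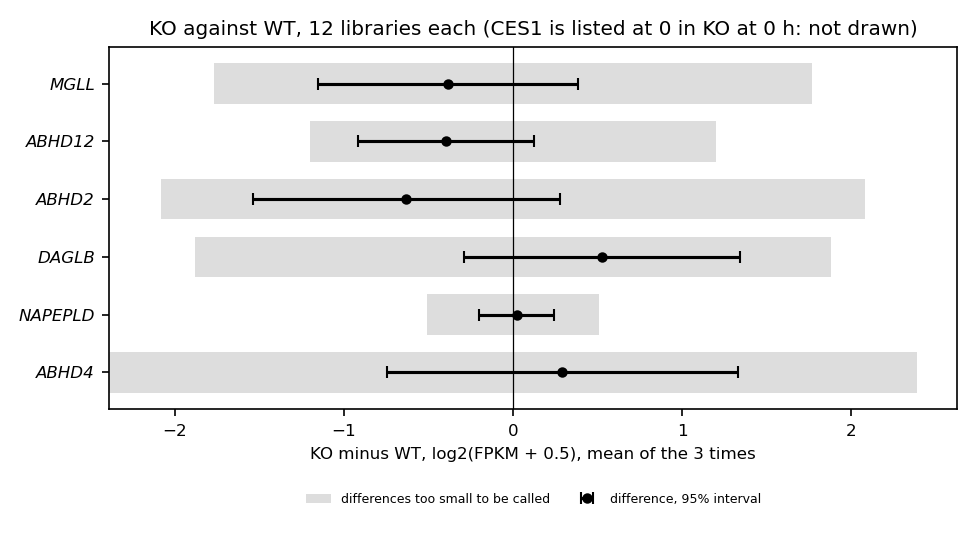
KO minus WT on the log2(FPKM + 0.5) scale, averaged over the 3 times (x axis), for 6 of the 7 genes tested (y axis), with 95% intervals from limma on 24 libraries; grey bars span the differences too small to be called. All 6 intervals include 0, and NAPEPLD has the narrowest, -0.20 to 0.24; CES1, whose interval excludes 0 on the low side (adjusted p = 0.171), is not drawn because its KO libraries at 0 h are listed at 0.

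MGLL, monoacylglycerol lipase (ENSG00000074416.13, chr3:127689062-128052190, minus strand), is the main 2-arachidonoylglycerol hydrolase of many tissues. Its row was low throughout. WT libraries held 0, 0, 1.17 and 0.492 FPKM at 0 h, then 4.69, 2.11, 1.44 and 1.32 at 24 h, and finally 0.961, 1.48, 0.969 and 2.01 at 48 h. KO libraries held 0.544, 1.11, 6.88 and 0.591 FPKM at 0 h, then 0, 0.478, 1.36 and 0.422 at 24 h, and finally 0.818, 0, 0.445 and 0.730 at 48 h. At 48 h all 4 KO libraries lay below all 4 WT libraries, a separation that 2.36% of genes showed in that direction and 4.11% in either. At 0 h and 24 h the genotypes overlapped.

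MGLL in KO stood 1.26 ± 0.64 log2 units above WT at 0 h (interval -0.07 to 2.59, adjusted p = 0.744), and 0.61 without KO replicate 2, the library at 6.88 FPKM. The difference was -1.46 ± 0.64 at 24 h (adjusted p = 0.923). In WT the gene stood 1.71 ± 0.64 higher at 24 h than at 0 h, without overlap (9.21% of genes) but not called (adjusted p = 0.163). The genotype difference in that response was -2.72 ± 0.91 at 24 h (unadjusted p = 0.00665, adjusted p = 0.854) and -2.21 ± 0.91 at 48 h (adjusted p = 0.670). These changes of MGLL did not pass the test, and the values rest on 0 to 13.9 fragments per library.

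ABHD12, a membrane hydrolase of 2-arachidonoylglycerol and of lysophosphatidylserine (ENSG00000100997.18, chr20:25294743-25390983, minus strand), was the hydrolase with the best support, 5.60 to 145.0 fragments per library. WT libraries held 61.7, 32.5, 49.8 and 34.6 FPKM at 0 h, then 50.3, 39.4, 68.8 and 45.2 at 24 h, and finally 62.5, 63.7, 93.4 and 94.0 at 48 h. KO libraries held 48.0, 38.0, 28.4 and 6.38 FPKM at 0 h, then 79.1, 32.1, 36.6 and 73.9 at 24 h, and finally 40.2, 80.8, 58.3 and 59.7 at 48 h. The genotypes overlapped at every time.

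At 0 h the ABHD12 mean was 30.2 ± 17.8 FPKM (SD, n = 4) in KO and 44.7 ± 13.7 in WT. The 24 h means were 50.9 ± 12.7 (WT) and 55.4 ± 24.5 (KO), the 48 h means 59.8 ± 16.6 (KO) and 78.4 ± 17.7 (WT), and this is also the order of the 6 means. Neighbours in that order did not differ beyond their spread. KO stood 0.82 ± 0.44 log2 units below WT at 0 h (adjusted p = 0.744), and 1 KO library, replicate 3 at 6.38 FPKM, weighed on it: without that library the difference was -0.21.

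ABHD2, a hydrolase known for splitting 2-arachidonoylglycerol in sperm (ENSG00000140526.17, chr15:89087459-89202360, plus strand), ranged from 0 to 16.0 FPKM. Its WT medians at the 3 times were 1.25, 3.80 and 3.07 FPKM, and its KO medians 0.740, 0.988 and 2.80 FPKM. The genotypes overlapped at all 3 times, and the difference over the times was -0.63 ± 0.44 (adjusted p = 0.833).

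CES1, liver carboxylesterase 1, an abundant ester hydrolase of hepatocytes that also accepts 2-arachidonoylglycerol (ENSG00000198848.12, chr16:55802851-55833337, minus strand), had the smallest unadjusted p of the 7 genes between KO and WT over the 3 times. At 0 h it was at 1.38, 6.13, 1.25 and 2.85 FPKM in WT and listed at 0 in all 4 KO libraries. The 24 h libraries held 15.5, 8.11, 6.92 and 4.01 FPKM (WT) and 11.2, 5.38, 1.92 and 0 (KO). The 48 h libraries held 7.39, 12.6, 19.1 and 4.94 FPKM (WT) and 1.63, 3.90, 4.98 and 10.2 (KO).

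The genotypes thus did not overlap for CES1 at 0 h, as for 1.31% of genes in that direction and 2.72% in either, and overlapped at 24 h and 48 h. CES1 had an adjusted p of 0.344 at 0 h and 0.171 over the 3 times (limma; unadjusted p = 0.00240 and 0.000684), so it was not called lower in KO. At 0 h the WT values stood for 1.18 to 5.82 fragments per library, 11.1 in all 4, while 3 fragments correspond to 2.77 to 3.36 FPKM in the KO libraries. Of the 4 WT values, 6.13 FPKM lay above that range, 2.85 within it and the others below it, and no fold is given against libraries listed at 0. MT-ATP6, MT-CO3 and MT-ATP8 were also listed at 0 throughout a group, WT at 48 h. Whether the 0 of CES1 is of that kind was not tested. KO stood 1.45 ± 0.75 log2 units below WT at 24 h (adjusted p = 0.940) and 1.08 ± 0.75 below it at 48 h, not called either. The 2 annotated CES1 pseudogenes, CES1P1 and CES1P2, were listed at 0 in all 24 libraries, and the sources used here do not give how shared reads were counted.

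Of the 8 hepatoma markers, 0 were called between KO and WT at 0 h, 24 h or 48 h and 1 was called lower over the 3 times, where 0.151% of all genes were. At 0 h the summed level of the 8 hepatoma markers was 1297 to 1458 FPKM in WT libraries against 1133 to 1330 in KO libraries. The ranges were 1094 to 1463 against 889.7 to 1186 at 24 h and 1617 to 1996 against 1396 to 1538 at 48 h. The marker called was APOA1, the main apolipoprotein of high-density lipoprotein (-0.64 ± 0.11, adjusted p = 0.0101). The part of these markers in the CES1 values was not tested.

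Of the 2 diacylglycerol lipases, which make 2-arachidonoylglycerol, DAGLB was not called in any comparison. DAGLA was below the floor and so could not be called. DAGLB (ENSG00000164535.14, chr7:6409126-6484190, minus strand) was above 0 in 24 of 24 libraries. It shares 376 exon bases with KDELR2 on its own strand. WT libraries held 5.48, 3.16, 3.91 and 3.67 FPKM at 0 h, then 7.68, 13.0, 1.68 and 5.04 at 24 h, and finally 14.6, 2.60, 2.55 and 5.10 at 48 h. KO libraries held 5.10, 9.58, 1.06 and 8.95 FPKM at 0 h, then 2.77, 11.7, 10.3 and 19.8 at 24 h, and finally 2.95, 11.2, 10.8 and 9.87 at 48 h.

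The DAGLB group means in KO were higher at each time (6.17 against 4.06, 11.1 against 6.84 and 8.71 against 6.21 FPKM), the libraries overlapped throughout, and the difference over the times was 0.53 ± 0.39 (interval -0.29 to 1.34, adjusted p = 0.850). DAGLA (ENSG00000134780.9, chr11:61680433-61747001, plus strand), the form known from neurons, was above 0 in 14 of 24 libraries and never above 1.52 FPKM. At 0 h it was above 0 in 1 WT library (0.529) and 1 KO library (1.27). The 0 of the other libraries at 0 h still allows 1.05 to 1.33 FPKM at 3 fragments, so DAGLA was near the limit at all times.

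NAPEPLD, the phospholipase D that forms N-acylethanolamines (ENSG00000161048.11, chr7:103099776-103149560, minus strand), had values between 40.3 and 92.1 FPKM. WT libraries held 44.7, 63.8, 56.3 and 65.1 FPKM at 0 h, then 48.6, 42.1, 43.2 and 48.6 at 24 h, and finally 48.6, 53.2, 45.1 and 40.3 at 48 h. KO libraries held 64.2, 46.6, 58.5 and 92.1 FPKM at 0 h, then 48.6, 46.5, 46.8 and 41.8 at 24 h, and finally 42.5, 43.2, 42.8 and 45.2 at 48 h. WT and KO overlapped at each time.

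ABHD4, which acts in another route to N-acylethanolamines (ENSG00000100439.10, chr14:22598237-22613215, plus strand), scattered between 0 and 8.59 FPKM. Its KO minus WT difference over the times was 0.29 ± 0.50 (adjusted p = 0.942). FAAH, fatty acid amide hydrolase, which degrades anandamide (ENSG00000117480.15, chr1:46394265-46413848, plus strand), had 0 in each of the 16 libraries from 0 h and 24 h. The 48 h libraries held 0, 0, 0 and 2.44 FPKM (WT) and 0, 1.54, 2.25 and 1.41 (KO), which is 2.08 to 3.73 fragments in each of the 4 libraries above 0. At 0 h, 3 fragments would have been 2.89 to 3.65 FPKM, more than any value at 48 h, so a difference between times is not shown at this depth. FAAHP1, the annotated FAAH pseudogene, was listed at 0 throughout.

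Palmitic acid was followed by a called change in 1 of the 7 genes in KO and in 0 of 7 in WT; exposure and time since plating changed together and cannot be told apart. In KO, CES1 was called higher at 24 h (adjusted p = 0.0406) and at 48 h (adjusted p = 0.00478) than at 0 h. These are 1 of 7 genes at each time, beside 2.13% and 3.4% of all genes called higher and 5.64% and 9.82% called either way. In WT, 4.06% and 6.79% of all genes were called at 24 h and 48 h. None of the 7 was called between 24 h and 48 h, where 0.122% of genes in WT and 0.516% in KO were.

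CES1 in KO was above 0 in 3 of 4 libraries at 24 h and 4 of 4 at 48 h after being listed at 0 in all 4 at 0 h, so the 48 h libraries did not overlap the 0 h ones and those of 24 h did. No fold is given against a group at 0. The 24 h call was lost in 7 of 8 fits that left out 1 library of the 2 groups (any of the 4 KO libraries at 0 h, or KO replicate 0, 1 or 2 at 24 h), with adjusted p of 0.0655 to 0.159 in those fits, and also without KO replicate 1 of 48 h. The 48 h call was kept in all alternatives (adjusted p 0.000756 to 0.0259). The 8 libraries at 0 h held fewer fragments than the later ones, and the part of depth in this rise was not tested. Nor was it tested whether the 0 of CES1 at 0 h is like the group-wide 0 of the mitochondrially encoded genes named above.

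In WT, CES1 stood 1.49 ± 0.75 log2 units higher at 24 h (adjusted p = 0.338) and 1.81 ± 0.75 at 48 h (adjusted p = 0.172) than at 0 h, in neither case called. The test of the difference between the genotypes' responses gave adjusted p = 0.924 at 24 h and 0.844 at 48 h, and the called rise in KO is not shown to differ from that in WT. At both times 0 of 7 members were called in this test, as were 0% and 0.0522% of all genes (950 genes, 5.51%, had an unadjusted p under 0.05 at 24 h).

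ABHD12 and NAPEPLD came next to the threshold in KO. ABHD12 at 48 h stood 1.25 ± 0.44 above 0 h in KO (adjusted p = 0.0760) and 0.83 ± 0.44 in WT (adjusted p = 0.320), where the groups did not overlap, as for 11.7% of genes. NAPEPLD stood at -0.46 ± 0.19 at 24 h (adjusted p = 0.169) and -0.54 ± 0.19 at 48 h (adjusted p = 0.0684) in KO, and at -0.32 ± 0.19 and -0.29 ± 0.19 in WT (adjusted p = 0.427 and 0.441).

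Whether ABHD12 and NAPEPLD were called at 48 h in KO turned on the processing. ABHD12 was called after rescaling to the median of ratios or by quantiles (lowest adjusted p 0.0304), and without KO replicate 0 of 0 h. NAPEPLD was called with a floor of 2 FPKM and without KO replicate 1 of 0 h (lowest adjusted p 0.0144), and at 24 h it was also called without that library (adjusted p = 0.0468), while quantile scaling moved it to -0.24 (adjusted p = 0.504). Rescaling to the median of ratios itself shifted the median of all genes in that comparison by 0.11. At 48 h against 0 h in KO, 3 of the 7 genes had groups that did not overlap, 2 higher and 1 lower, beside 15.2% of all genes. The 2 higher were CES1 and ABHD2, at 1.97 to 6.25 against 0.436 to 1.73 FPKM (1.45 ± 0.76, adjusted p = 0.278), and the lower was NAPEPLD.

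**Figure D3:**
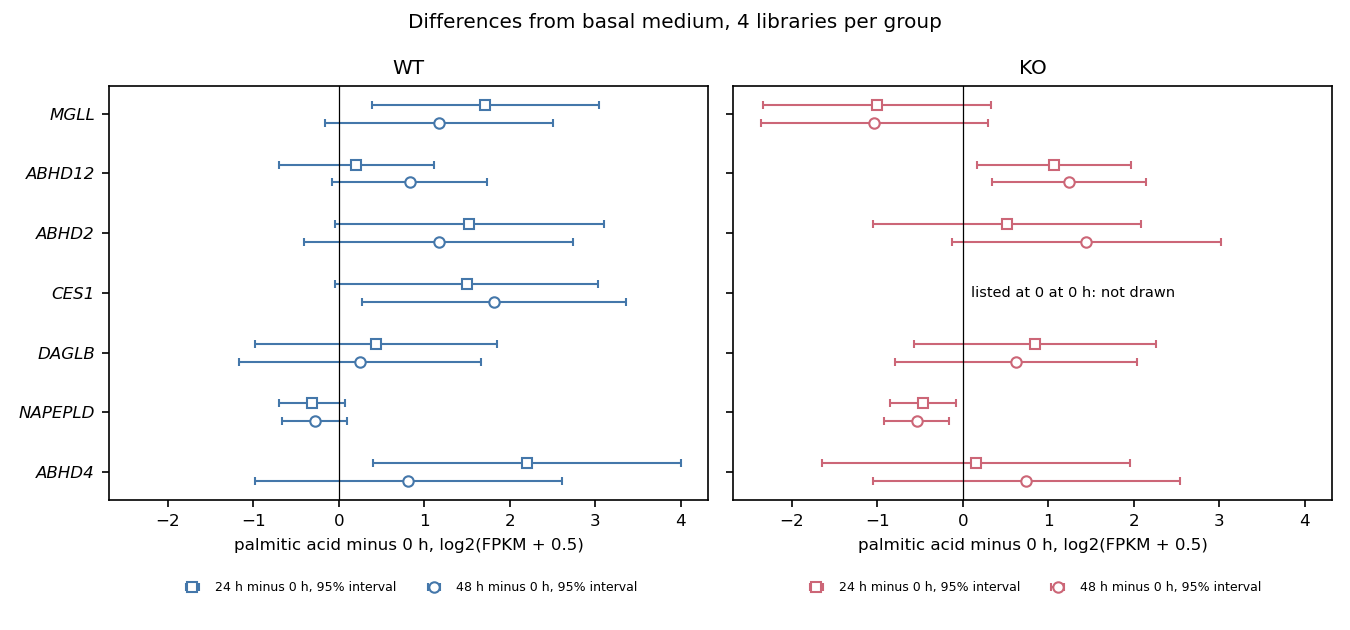
Differences from 0 h on the log2(FPKM + 0.5) scale (x axis) for the 7 genes tested (y axis), in WT (left) and KO (right), at 24 h (squares) and 48 h (circles), with 95% intervals from limma. CES1 in KO is not drawn because its 0 h libraries are listed at 0; NAPEPLD lies below 0 and ABHD12 above 0 in both genotypes, none of them called.

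The remaining members moved without passing the test. ABHD4 in WT stood 2.20 ± 0.87 higher at 24 h than at 0 h (adjusted p = 0.192), with 2.82 to 8.59 FPKM against 0 to 4.27, and the groups overlapped. FAAH, below the floor and so not counted, had adjusted p = 0.0456 at 48 h against 0 h in KO in the fit without a floor, and it ranged from 0.00245 to 0.177 over 17 alternatives, 12 of which lost the threshold. ABHD6 in the same comparison had adjusted p = 0.287.

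Genes around the set were read from 8 lists of 71 genes: other ABHD proteins, other acylglycerol and ester lipases, N-acylethanolamine enzymes, receptors, carriers, re-esterification enzymes, phospholipases C and enzymes of bis(monoacylglycero)phosphate synthesis. Of these, 50 were tested. Between KO and WT, 0 of 50 were called at 0 h, 24 h or 48 h, and 1 was called lower over the 3 times, beside 0.0985%, 0.0116% and 0.0638% of all genes called at each time and 0.151% called lower over the 3 times. That gene was FABP1, the liver fatty acid-binding protein that also carries endocannabinoids, which was lower in KO by -0.61 ± 0.11 log2 units (adjusted p = 0.0101).

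At 0 h FABP1 averaged 703 ± 142 FPKM (SD, n = 4) in WT against 385 ± 63 in KO. The means were 450 ± 105 against 353 ± 71 at 24 h, then 474 ± 70 against 307 ± 59 at 48 h. The libraries of the genotypes did not overlap at 0 h (499 to 825 against 337 to 476), as for 1.31% of genes in that direction and 2.72% in either. They overlapped at 24 h (357 to 600 against 284 to 439) and, by 1 pair, at 48 h (387 to 554 against 249 to 390).

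The other ABHD proteins, the family in which a substitute might be sought, had 15 of 16 genes tested and 0 called between genotypes, with a median difference over the times of -0.03 (all genes 0.00). The 11 of 12 lipases tested had 0 called and a median of -0.33. The N-acylethanolamine list had 4 of 12 tested (median 0.23), the receptors 4 of 8 (0.15), the carriers 4 of 6 (-0.19), the re-esterification enzymes 4 of 6 (-0.47), the phospholipases C 6 of 8 (-0.21) and bis(monoacylglycero)phosphate synthesis 2 of 3 (0.10).

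After palmitic acid, 3 of the 50 genes were called higher at 48 h in WT and 1 in KO, and 0 at 24 h in either. Of all genes, 2.57% were called higher at 48 h in WT and 3.4% in KO, and 4.06% and 5.64% were called either way at 24 h, so the lists' counts are read only gene by gene. ABHD3, a phospholipid hydrolase of the family, rose in WT from 4.42 ± 3.55 to 18.4 ± 12.6 FPKM (2.01 ± 0.55, adjusted p = 0.0250). LIPC, hepatic lipase, rose in WT from 1.40 ± 1.35 to 8.31 ± 3.23 FPKM (2.47 ± 0.65, adjusted p = 0.0212). PLD3, a lysosomal enzyme that forms bis(monoacylglycero)phosphate, rose in WT from 27.2 ± 18.9 to 70.5 ± 24.0 FPKM (adjusted p = 0.0400) and in KO from 36.7 ± 27.3 to 103.2 ± 17.6 (1.70 ± 0.44, adjusted p = 0.0130).

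The genes most like ABHD12 and CES1 across the 24 libraries were picked by Pearson correlation of log2(FPKM + 0.5) among the 6001 protein-coding genes that averaged 5 FPKM or more. For ABHD12 these were NFE2L2 (0.77), HMGN3 (0.76), MGST2 (0.75), SEC61G (0.75) and GGA1 (0.75). For CES1 they were NIPSNAP1 (0.76), ENO1 (0.75), THOC2 (0.75), ADH5 (0.75) and ALB (0.73). ALB, the albumin gene, had 146 ± 26 FPKM in WT against 106 ± 31 in KO at 0 h, and 279.6 ± 31.5 against 171 ± 27 at 48 h. These correlations describe libraries that share the 0 h to 48 h change and its depth, and they are the top of many.

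3 of the genes share exon bases with a gene on the other strand, and the strand limit given above holds for the other rows as well. AC124068.1, a processed pseudogene opposite the end of ABHD2 (chr15:89201091-89201768), had 694 to 1233 FPKM, far above ABHD2 in all 24 libraries. It was called lower in KO at 24 h (-0.55 ± 0.12, adjusted p = 0.00468) and 48 h (-0.47 ± 0.12, adjusted p = 0.00902) than at 0 h, while ABHD2 in KO stood at 0.52 ± 0.76 and 1.45 ± 0.76, not called.

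DKFZP434K028, a long noncoding RNA opposite the end of DAGLA (chr11:61746493-61757655), averaged 58.9 FPKM, reached 99.1 and exceeded DAGLA in all 24 libraries. It rose after palmitic acid in WT (1.18 ± 0.24 at 24 h, adjusted p = 0.00418, and 1.57 ± 0.24 at 48 h, adjusted p = 0.000118) and in KO (1.06 ± 0.24, adjusted p = 0.00729, and 1.32 ± 0.24, adjusted p = 0.000472). DAGLA itself went from 2 of 8 libraries above 0 at 0 h to 12 of 16 later, when libraries held more fragments. The part of depth in that count was not tested. In the fit without a floor, DAGLA at 48 h against 0 h had adjusted p = 0.807 in WT and 0.507 in KO (limma). AC243965.2, antisense to ABHD4, rose in WT at 24 h (2.33 ± 0.57, adjusted p = 0.0194), where ABHD4 stood at 2.20 ± 0.87. The part of the partners in the values of ABHD2, DAGLA and ABHD4, or of these genes in the partners' values, was not tested. ABHD6, ABHD12, MGLL, FAAH, NAPEPLD and CES1 share no exon bases with a gene on the other strand, nor does DAGLB, which shares 376 with KDELR2 (mean 26.8 FPKM) on its own strand. That does not free their rows from the strand limit.

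**Figure D4:**
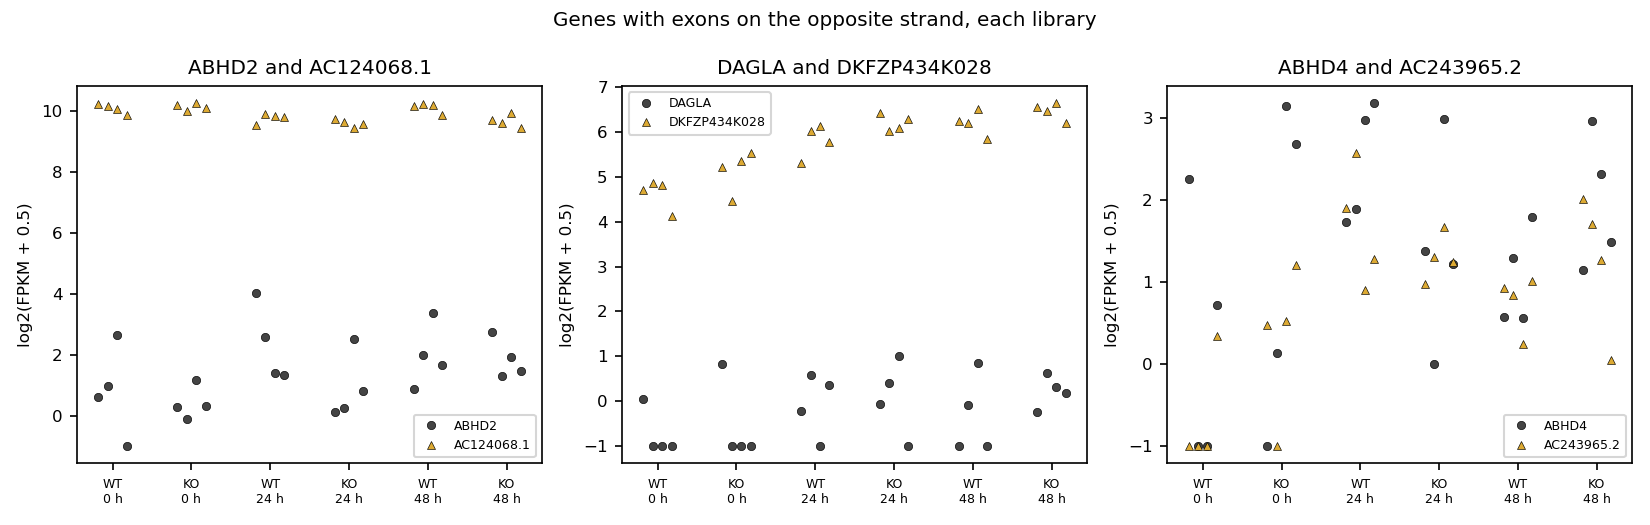
log2(FPKM + 0.5) (y axis) of ABHD2, DAGLA and ABHD4 (dark circles) and of the gene opposite each (yellow triangles) in every library, by genotype and time (x axis). AC124068.1 and DKFZP434K028 lie above ABHD2 and DAGLA in all 24 libraries, and AC243965.2 lies above ABHD4 in 7.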

How the data were processed

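RNA of Huh7 cells was sequenced from 24 libraries, 4 in each of 6 groups (WT or KO at 0 h, 24 h and 48 h); groups and replicate numbers came from sample titles, and the labels' treatment protocol gives a harvest on day 1 only. The authors deposited FPKM values, whole-series and without counts; the tools were STAR, Cufflinks and Cuffdiff on GRCh38, per the submitters' processing notes, with no versions or strand setting. The 58024 rows lost 45 copies on chromosome Y, all at 0. GENCODE release 29 named 57375 IDs (98.96%). Fragments per library were inferred from the smallest FPKM steps on genes with 1 transcript of at least 1500 bases, and intervals and limits of 3 fragments cover counting error only. limma 3.58.1 (R 4.3.3) fitted 6 group means to log2(FPKM + 0.5) with an intensity trend, on genes averaging 0.5 FPKM or more, with Benjamini-Hochberg adjustment, in 12 comparisons; a fold change on this scale understates that of low genes. Genes below the floor took the same fit without it and were not counted as called. The fitting code was run on simulated libraries with known changes at 0 h. Its pass mark covered only genes at high FPKM, so it does not speak for the low members. Alternatives were the pseudocount (0.1, 1), the floor (none, 2), scaling, the variance model, the groups fitted, a replicate block and each library left out. The text names all 10 genes, up to 4 called genes per list by adjusted p, and the 5 genes most correlated with ABHD12 and CES1. Members and lists were chosen with earlier results of these data known. Tables and figures used Python 3.11.15, pandas 2.3.3 and matplotlib 3.10.9.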

Additional observations from a re-analysis of the deposited data

Results flagged for a closer look

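In 11 of the 54 gene and group combinations with any spread (of 60), 1 of the 4 libraries stood apart from the other 3 by more than a 95% limit for the gap between an extreme value and its neighbour. Chance flags about 1 in 20 groups where values are continuous. Of the 11, 7 are 1 value above 3 libraries at 0, a pattern flagged wherever it occurred. The 11 of 54 are therefore not read as an excess over chance.

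ABHD6 gave 5 of them: WT replicate 0 at 0 h (1.16 FPKM), at 24 h (0.785) and at 48 h (0.846), and KO replicate 3 at 24 h (0.759), each beside 3 libraries at 0, and KO replicate 3 at 48 h, at 0 beside 0.693 to 0.771. DAGLA gave WT replicate 0 (0.529 FPKM) and KO replicate 0 (1.27 FPKM) at 0 h, and FAAH gave WT replicate 3 at 48 h (2.44 FPKM), each beside 3 libraries at 0.

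The others had signal in all 4 libraries. MGLL in KO replicate 2 at 0 h was at 6.88 FPKM beside 0.544 to 1.11, ABHD2 in KO replicate 2 at 24 h was at 5.24 beside 0.598 to 1.27, and DAGLB in KO replicate 0 at 48 h was at 2.95 beside 9.87 to 11.2.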

How the results depend on the processing

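Between KO and WT, between 24 h and 48 h and in the response difference, the count of the 7 genes called was 0 in every alternative run, as it was after palmitic acid in WT. In KO it was 1 at 24 h against 0 h (CES1) and 0 with a pseudocount of 1, without a floor, with only the 2 groups fitted, without a variance trend or with array weights; leaving out 1 library gave 0 to 1, the 1 being NAPEPLD in place of CES1 without KO replicate 1 of 0 h, and CES1 without KO replicate 3 of 24 h. At 48 h it was 1 (CES1) and 2 with a floor of 2 FPKM or with either rescaling; leaving out 1 library gave 1 to 2. The cause was not tested. The sign of ABHD6 at 24 h (-0.01) went from -0.34 to 0.33 when 1 library was left out. Over the 3 times ABHD6 (0.06) was -0.048 after quantile scaling and -0.053 to 0.202 with a library left out, and NAPEPLD (0.02) was -0.038 to 0.071.

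Counts over all genes moved more. With only the groups compared or without a variance trend, 701 at 24 h in WT became 355 or 334, 1171 at 48 h in WT became 591 or 750, and 973 at 24 h in KO became 617 or 639. Over all alternatives KO against WT gave 17 (8 to 36) at 0 h, 2 (0 to 13) at 24 h, 11 (4 to 33) at 48 h and 31 (12 to 44) over the 3 times, 48 h against 24 h gave 21 (4 to 43) in WT and 89 (10 to 159) in KO, and the response difference gave 0 (0 to 2) at 24 h and 9 (4 to 13) at 48 h.

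Replicate numbers gave no sign of pairing. Deviations from the group means correlated by -0.04 to 0.07 in 60 pairs of the same number. In 180 pairs of different numbers they correlated by -0.08 to 0.09. Counting error at this depth adds to the deviations, so these correlations cannot exclude pairing. With a replicate block no count of the 7 genes changed (CES1 at 24 h in KO had adjusted p = 0.0477), and KO against WT over all genes became 0 at 24 h and 27 at 48 h, and 48 h against 24 h in WT became 36. With about 1 fragment behind each ABHD6 value and under 4 behind each FAAH value, depth limits what either can show.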
